A study of Drosophila melanogaster with 3 samples.

Results

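In chromatin immunoprecipitation of the CG8319 protein from Drosophila melanogaster prepupae, 661 of the 4410 peaks of the authors' optimal list were autosomal intergenic distal peaks. A peak belonged to this class when it was not on the X chromosome, its summit lay in no annotated gene, and the nearest annotated start site was more than 500 bp away. Annotation was Ensembl BDGP6 without transposable elements, and positions are dm6, counted from 1. The 661 peaks made up 14.99% of the list and 18.5% of its 3578 autosomal peaks. The other autosomal classes were 1501 intragenic distal peaks, with a summit inside a gene, and 1416 promoter peaks, with a summit within 500 bp of a start site.

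All 3 samples were biological replicates of 1 group: whole prepupae of both sexes from 1 transgenic line carrying CG8319 with green fluorescent protein at its C terminus, precipitated with an antibody against that tag. Chromatin was sonicated to 200 to 800 bp, and the age of the animals is labelled unknown. No untagged group was analysed here, and a whole animal gives no cell type for a peak. The labels do not say that the replicates were separate cultures, so spread between them may be partly technical. Each peak carries a signal value from the authors' peak caller, whose scale differs between lists. It is compared only within a list, and read depth is unknown.

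In flies, DNA between genes holds many enhancers, stretches that bind transcription factors and act on promoters at a distance. Genes that direct patterning, signalling and the ecdysone response of metamorphosis often stand beside long intergenic stretches that hold several enhancers. A chromatin immunoprecipitation peak marks where a protein was recovered with DNA, and does not by itself show that the DNA is an enhancer or which gene it acts on. Below, genes are therefore named by position only, and a gene is beside a peak when it is the nearest protein-coding gene on either side.

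The sequences of strong intergenic peaks are shown because their summits share an A- and T-rich core. All are on the plus strand of dm6, from the RefSeq genome, and capitals mark every run of 6 or more A or T bases. The first is 300 bp around the strongest of those shown, between COX7AL2 and CG31668. Each of the others runs from 50 bp before a summit to 50 bp after it. The strongest peak of the class, described below, is not shown.
COX7AL2 to CG31668, strongest, chr2L:2202254-2202553: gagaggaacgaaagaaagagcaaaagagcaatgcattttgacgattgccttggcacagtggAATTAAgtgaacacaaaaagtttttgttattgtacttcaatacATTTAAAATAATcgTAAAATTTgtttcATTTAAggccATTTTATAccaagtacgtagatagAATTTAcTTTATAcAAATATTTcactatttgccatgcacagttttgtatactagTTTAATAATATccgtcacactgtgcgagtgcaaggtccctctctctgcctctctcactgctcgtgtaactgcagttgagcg
CG43245 to CG12523, chr3L:10776512-10776612: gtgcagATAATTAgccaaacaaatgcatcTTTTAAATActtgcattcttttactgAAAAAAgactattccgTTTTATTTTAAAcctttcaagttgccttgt
hid to CG7320, chr3L:18195143-18195243: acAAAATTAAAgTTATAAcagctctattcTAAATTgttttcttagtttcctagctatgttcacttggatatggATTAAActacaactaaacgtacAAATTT
yata to kay, chr3R:29763289-29763389: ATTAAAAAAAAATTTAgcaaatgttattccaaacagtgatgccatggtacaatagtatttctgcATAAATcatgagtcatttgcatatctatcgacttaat
Ids to sty, chr3L:3394970-3395070: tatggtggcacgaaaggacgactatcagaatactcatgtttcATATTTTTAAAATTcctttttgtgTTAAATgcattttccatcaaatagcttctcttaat
AOX4 to CG43335, an exception, chr3R:15553698-15553798: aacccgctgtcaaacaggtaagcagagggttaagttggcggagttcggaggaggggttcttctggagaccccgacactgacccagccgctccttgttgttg
C15 to sp3, an exception, chr3R:21520327-21520427: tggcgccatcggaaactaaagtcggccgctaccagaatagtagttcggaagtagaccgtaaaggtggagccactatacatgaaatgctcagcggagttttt

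At the hid summit the window shown held 73.3% A+T, against 43.1% in windows of the same width centred 300 bp to either side, its flanks. The strongest of the peaks shown had 77.2% A+T within 50 bp of its summit and 44.6% in the flanks. Both exceptions lacked any run of 6 A or T bases: the AOX4 summit held 42.6% A+T, against 48.5% in its flanks, and the C15 summit 51.5%, against 71.3%.

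Over all 661 peaks, A+T content averaged 67.1% at the summit and 53.4% in the flanks, and it was higher at the summit in 570 peaks (86.2%). The eligible sequence, meaning all autosomal sequence outside genes and more than 500 bp from a start site, held 59.3%. With the summits of the single replicates, the rise from flank to summit was 13.1 percentage points in replicate 1, 14.2 in replicate 2 and 13.4 in replicate 3, a mean of 13.5 ± 0.54 (SD, n = 3). It was positive in 3 of 3 replicates, with p = 0.25 in an exact two-sided sign-flip permutation test, the smallest p that 3 replicates allow. The size depended on where the flank lay: with flanks centred 1000 bp away it was 8.71 points. It was 9.30 ± 0.16 points (SD, n = 3) in the 194 peaks (29.3%) without soft-masked bases in the summit window. Soft-masked bases are those that the reference marks as repeats. Of all optimal peaks, 29.3% likewise had none.

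The mean rise was larger at intergenic distal peaks than at the other autosomal classes in each replicate, while the share of peaks with any rise, 86.2%, was not the highest: it was 87.7% in intragenic distal and 76.6% in promoter peaks. Intragenic distal peaks had a rise of 12.4 ± 0.43 points and promoter peaks one of 10.3 ± 0.70 (SD, n = 3). The difference was 1.24, 1.5 and 0.72 points against intragenic distal peaks, a mean of 1.15 ± 0.40. Against promoter peaks it was 3.68, 3.42 and 2.76 points, a mean of 3.29 ± 0.47, with exact permutation p = 0.25 for each. The classes differed less at the summits than in the flanks. With the replicates' own summits, the summit windows averaged 66.9% in intergenic distal, 66.9% in intragenic distal and 65.8% in promoter peaks, and the flanks averaged 53.4%, 54.5% and 55.5%.

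**Figure D1:**
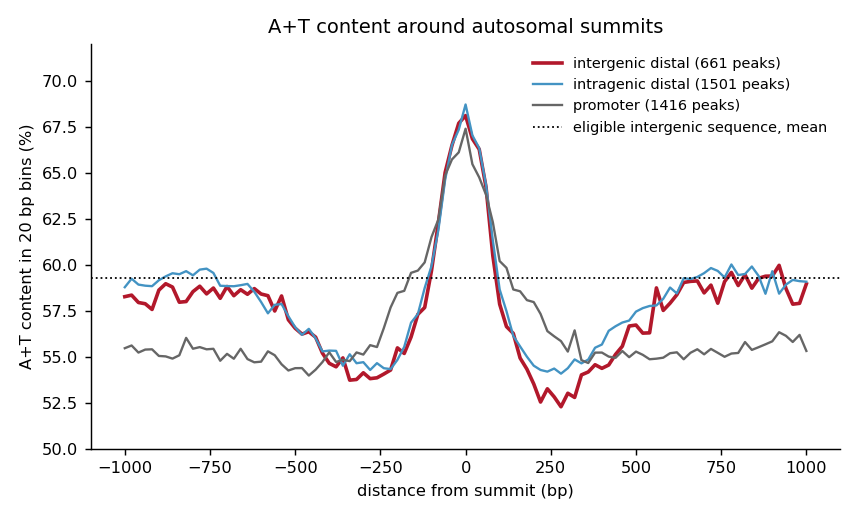
A+T content (%) in 20 bp bins against distance from the summit (bp), as the mean over 661 intergenic distal, 1501 intragenic distal and 1416 promoter peaks, with the mean of eligible intergenic sequence dotted. Intergenic distal peaks reach 68.1% at the summit, dip to 52.3% at 280 bp and return to a mean of 58.6% beyond 800 bp, while promoter peaks stay at 55.5% there.

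Along the sequence, A+T content was 68.1% in the 20 bp bin at the summit and fell to its lowest value, 52.3%, 280 bp away. Between 800 and 1000 bp it was 58.6%, close to the 59.3% of eligible sequence. The core was thus flanked on both sides by sequence poorer in A and T than the surroundings. Intragenic distal peaks showed the same shape, with 68.7% at the summit, a lowest value of 54.1% and 59.2% beyond 800 bp. At promoter peaks the lowest value was 54.0% and the level beyond 800 bp 55.5%, a shallower dip.

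The rise was larger among the stronger peaks, though it did not fall from each group to the next. With the intergenic distal peaks in 5 equal groups by signal, the rise was 15.2 and 15.7 points in the 2 strongest groups. In the others it was 12.8, 12.9 and 11.5 points, strongest first. The groups include summits close to a stronger one, described below, which were weaker and had a smaller rise. No run without them was made for these groups. A run of 6 or more A or T bases was present in 94.9% of summit windows and 70.0% of flanks, and a run of 10 or more in 53.1% and 23%. Promoter summits held a run of 10 or more in 55.3%, so long runs were not particular to intergenic peaks. A run of 6 or more was present in 93.0% of all optimal summits. Summits under 50% A+T were rare, 28 of 661 (4.24%), against 4.60% of intragenic distal, 7.49% of promoter and 5.92% of all optimal peaks.

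Short words at the summits mirrored this composition. Counting a word and its reverse complement as 1, there are 2080 words of 6 bases, and the 10 with the largest excess at the summits consisted of A and T only. AAATAT was found in 34.5% of summit windows and 11.8% of flanks, and TAAATA in 29.0% and 8.85%. At the other end CAGCAG was found in 3.18% of summits and 11.4% of flanks, and GCAACA in 4.99% and 13.5%. All 36 words made of A and T only were more frequent at summits than in flanks, and none of the 36 made of C and G only was. Among words with 4 A or T bases, TAAGCA had the largest excess, in 10.4% of summits and 4.31% of flanks, a difference of 7.67 ± 0.96 points over the replicates' own summits (SD, n = 3).

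A fixed set of 34 motifs, made of binding-site consensus letters and some simple repeats, was searched on both strands. Of these, 12 differed by at least 2 points between the summits and flanks of the optimal list. TATAAA, the letters of the TATA box, was found in 21.3% of summits and 8.4% of flanks, a rise of 11.5 ± 0.96 points over the replicates (SD, n = 3). It was followed by AACAAT, the core bound by Sox proteins, in 14.2% and 8.02%, by AAAAAAA in 13.2% and 9.30%, by TAATTA, bound by many homeodomain proteins, in 8.32% and 5.52%, and by CATATG, an E-box, in 4.24% and 2.12%. Several of these share letters with the words above. At intragenic distal summits TATAAA was found in 22.4% and at promoter summits in 22.6%. Over all optimal summits AACAAT was found in 13.5%, AAAAAAA in 14.8%, TAATTA in 9.55% and CATATG in 3.83%. The shares in intergenic distal peaks lay near these, so the letters were not particular to this class.
The 7 found less often at summits included GAGAG, the letters bound by GAGA factor, in 7.26% of summits and 14.3% of flanks. Over all optimal peaks GAGAG was likewise rarer at summits, in 9.37% against 17.0% of flanks. The others were ACACAC (4.24% and 9.30%), TGTTGT (6.81% and 10.7%), CATTCC (3.18% and 6.05%), CACACACA (0.756% and 3.56%), TGTTTGC (1.06% and 3.63%) and CATCTG (2.27% and 4.69%). The 22 that differed by less began with GAGAGAG, the Zelda letters CAGGTAG, the Grainyhead letters AACCGGTT and the DREF letters TATCGATA. They also held the core promoter letters GGTCACACT and then CATCGCTA, the E-boxes CACGTG plus the other E-box CAGCTG, the AP-1 letters TGACTCA and the CRE letters TGACGTCA. Further ones were GATAAG for GATA factors, TTTATTG for Hox factors, ATTTGCAT for POU factors, TGTTTAC for Fox factors, AGGTGTGA for T-box factors, TTCNNNGAA for STAT and AGGTCA for nuclear receptors. The last were ACAATG for Sox factors, TTGCGCAA for C/EBP, GTGGGAA for Su(H), CCGGAA for Ets factors and the repeat ATATATAT. With the replicates' own summits 3 of the 34 changed sides of the 2 points: CATATG averaged a rise of 1.84, TTTATTG one of 2.04, and CAGCTG a difference of -2.62. A match describes the letters and is no evidence of a site.

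Intergenic distal peaks were weaker than promoter peaks and close to intragenic distal peaks. Their median signal in the pooled optimal list was 129.8 (quartiles 104.2 and 196.9, range 87.5 to 1335), against 137.9 in intragenic distal and 158.2 in promoter peaks. Within replicates 1, 2 and 3 the median was 34.3, 65.1 and 40.1, against 42.01, 78.5 and 49.4 at promoters. The log2 difference from promoter peaks was -0.29, -0.27 and -0.30, a mean of -0.29 ± 0.02 (SD, n = 3), lower in 3 of 3 replicates (exact sign-flip permutation p = 0.25, the smallest possible). The log2 difference from intragenic distal peaks was -0.06, -0.08 and 0.01, a mean of -0.05 ± 0.05, which was within the spread between replicates (exact permutation p = 0.50).

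With the autosomal peaks in 5 equal groups by signal, the share of intergenic distal peaks was 13.3% in the strongest group and 17.7%, 17.6%, 21.9% and 21.8% in the following ones. Their place among the replicates' top peaks, the 4410 of highest signal in each replicate list, followed signal in the same way. All 3 replicates had 415 of the 661 (62.8%) in this top set, 2 replicates had 169, only 1 had 70, and none had 7. Over all optimal peaks 66.1% lay in all 3, over intragenic distal peaks 64.0% and over promoter peaks 69.9%. In the same 5 groups the share of intergenic distal peaks found in all 3 was 100%, 100%, 83.3%, 42.7% and 13.5%, and that of promoter peaks 98.4%, 97.2%, 79.7%, 33.2% and 16.7%. The authors built the optimal list from these replicate lists, so the shares describe rank and are no test.

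A listed region of any rank was present in all 3 replicates for 659 of the 661. The 2 exceptions were a peak 516 bp from CG32301 (signal 93.2), without a region in replicate 2, and one between hid and CG7320 (signal 88.2), without a region in replicate 1. Replicates placed the summit within a median of 31 bp of each other for replicates 1 and 2, 34 bp for 1 and 3, and 31 bp for 2 and 3, a mean of 32.0 ± 1.73 bp (SD over 3 pairs). The corresponding means were 33.0 ± 4.0 bp in intragenic distal and 30.7 ± 4.04 bp in promoter peaks.

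Some summits lay close to another, and whether they mark separate places was not tested. The next optimal summit lay 199 to 315 bp away for 57 of the 661 peaks, 49 of them between 199 and 219 bp, while 530 of the 661 peaks were 410 bp wide, or 205 bp to either side of the middle. Between 350 and 500 bp there were none, and between 500 and 600 bp 18. Of the 661, 30 (4.54%) lay within 350 bp of a stronger optimal summit, here called secondary summits, and 26 of the 30 shared their region in all 3 replicate lists with another optimal peak, so that their replicate values and top-set place are those of the shared region. Secondary summits had a median signal of 99.5, against 134.2 in the other 631 peaks, and an A+T rise of 3.60 points, against 14.1. Their summits held 60.3% A+T and their flanks 56.7%, against 67.4% and 53.3%. The flank on the side of the stronger summit lies close to that summit, so these rises are not measured alike. The share was 3.93% in intragenic distal and 5.51% in promoter peaks. Counts below include them unless stated.

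The strongest intergenic distal peak lay between Su(z)2, a relative of the Polycomb-group gene Psc, and CG13323 (chr2R:13035102-13035527). Its signal was 308, 654 and 372 in replicates 1, 2 and 3 and 1335 in the pooled list, and it ranked 8, 8 and 12 in the replicates. It stood alone, with the next optimal summit 19780 bp away and the nearest start site 11952 bp away. The next in order lay between COX7AL2 and CG31668 (chr2L:2202186-2202596), with 250, 608 and 325 in the replicates and 1185 in the pool, and another intergenic distal peak of the 15 strongest stood in the same stretch with 125, 276 and 201. The third lay between CG43245 and CG12523 (chr3L:10776391-10776740), with 208, 541 and 267.

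The fourth peak, between the adenylate kinase gene Adk3 and the stress-response gene Gadd45 (chr2R:7246412-7246800), had 189, 520 and 148 in the replicates. Its summit held only 41.6% A+T, against 47.5% in its flanks. It and the AOX4 and C15 peaks were the 3 of the 15 strongest whose summit was not richer in A and T than the flanks.

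Several of the 15 strongest lay beside genes of known developmental function. The peak between hid, an inducer of cell death that blocks inhibitors of apoptosis, and CG7320 had a signal of 108, 250 and 130 in replicates 1, 2 and 3. The one 592 bp upstream of ds, a large cadherin of planar cell polarity, had 109, 236 and 113. The one 2656 bp upstream of kay, the fly Fos subunit of the AP-1 transcription factor, had 77.0, 220 and 152. Between Ids, a lysosomal sulfatase gene, and sty, an inhibitor of receptor tyrosine kinase signalling, the peak had 85.7, 229 and 133. Between the homeobox gene C15 and sp3 the values were 107, 172 and 155, and the nearest start site was that of sp3, 551 bp away.
All 15 ranked within the top 542, 427 and 389 of replicates 1, 2 and 3. The remaining 5 lay between CG43336 and pxb (signal 599 in the pool), AOX4 and CG43335 (492), hng3 and CG13898 (477), CG3092 and yip3 (459), and CG7320 and CheA75a (455).

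**Figure D2:**
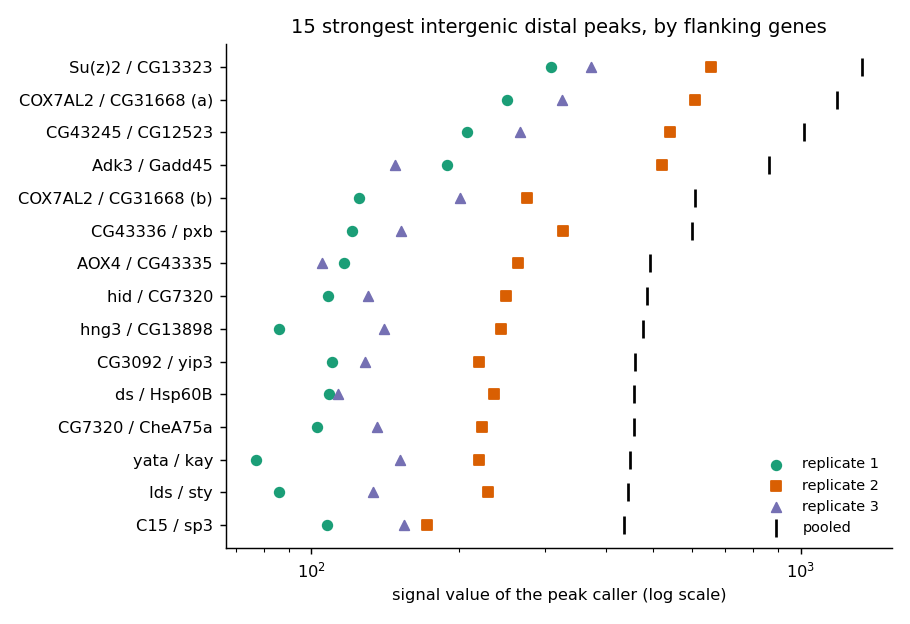
Signal value of the peak caller (log axis) in replicates 1, 2 and 3 and in the pooled optimal list for the 15 strongest intergenic distal peaks found in the top set of every replicate, strongest at the top and named by the flanking protein-coding genes. Pooled signal runs from 1335 between Su(z)2 and CG13323 to 435 between C15 and sp3; the scale differs between lists, so heights compare only within a list.

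Most intergenic distal peaks stood a few kilobases from a start site. The median distance was 3252 bp (quartiles 1365 and 6280), 224 (33.9%) lay over 5 kb away, 66 over 10 kb and 15 over 20 kb. Of intragenic distal peaks, 33.7% likewise lay over 5 kb away. The ranges 5 to 10 kb, 10 to 20 kb and over 20 kb held 19.5%, 13.5% and 22.1% of the autosomal sequence open to the class. They held 23.9%, 7.72% and 2.27% of its peaks. The nearest start site belonged to a protein-coding gene for 403 peaks, to a non-coding RNA for 235 and to a tRNA for 20. To protein-coding start sites alone the median distance was 5190 bp, and 51.0% lay over 5 kb away. The summit was upstream of the nearest start site in 419 peaks and downstream in 242. The rule leaves out summits inside genes, so sequence downstream of a start site but within its gene could not count. The upstream share of eligible sequence was not measured, so the split shows no preference. At the 500 bp limit the nearest included peaks had distances of 503, 504 and 505 bp and signals of 193.3, 96.9 and 275.8, and the nearest left out 499, 494 and 492 bp and 145.3, 105.5 and 162.7.

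The 5 peaks farthest from a start site had signals of 90.9 to 303.5. The farthest, 43302 bp from lncRNA:CR40341 in the gap between CG10651 and CG17571, had 16.8, 34.7 and 30.6 in the replicates, ranked 7462, 6041 and 3387, and its summit lay in a transposable element. One 39361 bp upstream of CG43335 had a pooled signal of 95.3. A pair between the Ninjurin gene NijA and CG43245, 33004 and 31871 bp from the nearest start site, had 159.7 and 303.5, and both lay in the top set of every replicate. The fifth, 31113 bp downstream of Tollo, a Toll receptor gene, had 90.9 and lay in the top set of none. Of the 661 summits, 3 (0.454%) lay in an annotated transposable element, against 0.400% of intragenic distal, 0.141% of promoter and 0.272% of all optimal peaks.

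Eligible autosomal sequence amounted to 31.2 Mb, and intergenic distal peaks had a density of 21.2 per Mb in it. Density was highest near genes: 38.6 per Mb at 0.5 to 1 kb from a start site, 39.2 at 1 to 2 kb, 24.97 at 2 to 5 kb, 26.1 at 5 to 10 kb, 12.1 at 10 to 20 kb and 2.17 beyond 20 kb. Much of the far sequence lay near the centromeres, where few peaks were called: with each large arm cut into 5 equal stretches, the innermost held 2.63 per Mb and the others 19.7, 32.7, 35.02 and 36.8 outwards. Transposable elements covered 17.4% of eligible sequence in the innermost stretch and 5.75% in the outermost. Leaving out transposable elements, the innermost stretches and chromosome 4, density beyond 20 kb was 18.3 per Mb and that at 1 to 2 kb 45.4. The decline with distance was smaller there.

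**Figure D3:**
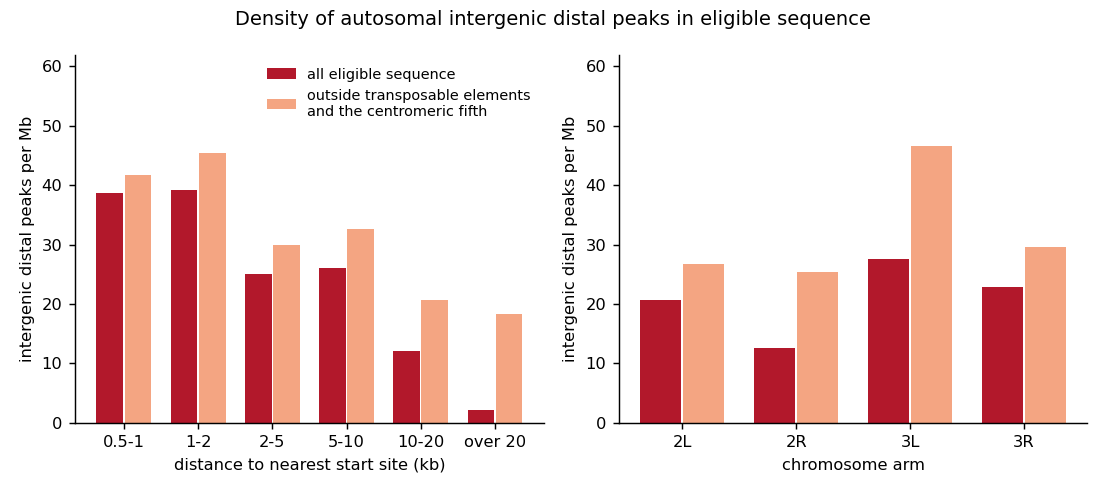
Intergenic distal peaks per Mb of eligible sequence by distance to the nearest start site (kb, left) and by large chromosome arm (right), in all eligible sequence and outside transposable elements and the innermost of 5 equal stretches of each arm. Beyond 20 kb the density is 2.17 per Mb in all eligible sequence and 18.3 with the restriction, and arm 3L is highest in both, at 27.5 and 46.6 per Mb.

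Arm 3L held the most intergenic distal peaks, 250, with 176 on 3R, 139 on 2L, 94 on 2R and 2 on chromosome 4. Per Mb of eligible sequence this was 27.5 on 3L, 22.9 on 3R, 20.7 on 2L, 12.6 on 2R and 8.15 on chromosome 4. Outside transposable elements and the innermost stretches 3L stood at 46.6, and 3R, 2L and 2R at 29.6, 26.8 and 25.4. With that restriction 2R lay close to 2L, while 3L still stood above the other arms. By the direction of the flanking protein-coding genes, density was 26.7 per Mb between divergent genes, 22.6 between tandem and 16.7 between convergent genes, and 35.7, 34.4 and 26.4 with the restriction. No test was made of these densities.

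Many intergenic distal peaks stood near another peak. Another optimal summit lay within 2 kb for 266 of the 661 (40.2%), against 38.5% of intragenic distal, 28.5% of promoter and 35.7% of all optimal peaks. Without secondary summits these shares were 34.9% in intergenic distal, 32.9% in intragenic distal and 19.3% in promoter peaks. Of 4620 gaps between neighbouring protein-coding genes with eligible sequence, 356 held an intergenic distal peak, 220 of them just 1. At the other end, 24 gaps with 5 or more held 162 peaks (24.5%). Without secondary summits 19 gaps with 5 or more held 130.

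The 8 richest gaps, taken by number of peaks and then by summed signal, held 75 of the peaks, 60 of them in the top set of every replicate, and 6 of the 8 lay on 3L. The last 3 held 7 peaks each, as did the gap next in order, between CG33795 and CG33687 on 3L. Of these 8, 3 surround emc (FBgn0000575), which encodes a helix-loop-helix protein without a DNA-binding region that holds back proneural factors. The gene lies inside the span of hng3 on the other strand, so it borders no gap itself. The stretch from CG13896 to hng3 held 7 peaks, that from hng3 to CG13898 14, and that from CG13898 to Sf3b3 7, together 28 over 99.9 kb. They stood 10974 to 75265 bp from the start of emc, 21 beyond its 3′ side and 7 on its 5′ side, and 22 of the 28 were in the top set of every replicate. Only 1 of the 28 was a secondary summit.
The strongest of them had 86.0, 243 and 141 in replicates 1, 2 and 3, and another, 31.9 kb from the start of emc, had 104, 185 and 142. The weakest had 27.6, 35.8 and 21.2. In the same span lay 6 other optimal peaks, 4 at promoters and 2 inside genes.

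The gap of 23.8 kb upstream of heca, a gene that regulates imaginal cells and tracheal branching, held 13 peaks from 1.17 to 22.3 kb away, 1 of them secondary. Median signal over the 13 was 52.2, 118 and 61.8 in replicates 1, 2 and 3, and 9 of the 13 lay in the top set of all 3. A series of 4 stood 613 to 699 bp apart. The strongest of the 13 had 112, 173 and 72.1. Between Ids and sty, on the 3′ side of sty, a gap of 21.1 kb held 10 peaks, 9 of them in the top set of every replicate and 2 secondary, with median signals of 46.2, 85.9 and 66.9.

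Upstream of hid, 13 peaks stood in 2 adjacent gaps, 6 between hid and CG7320 and 7 between CG7320 and CheA75a, none of them secondary. They lay 5.02 to 53.1 kb from the start of hid, and 11 of the 13 were in the top set of every replicate. The gap of 33.6 kb between Qsox2 and Eip93F, an ecdysone-induced transcription factor that directs the change to adult tissues, held 9 peaks, all between 5003 bp and 27.2 kb upstream of Eip93F, 1 of them secondary. The strongest had 97.7, 185 and 92.9 in the replicates, and the next 90.9, 165 and 97.1, while the other 7 had pooled signals from 87.8 to 135.9. Between NijA and CG43245, 8 peaks lay in 75.05 kb.

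**Figure D4:**
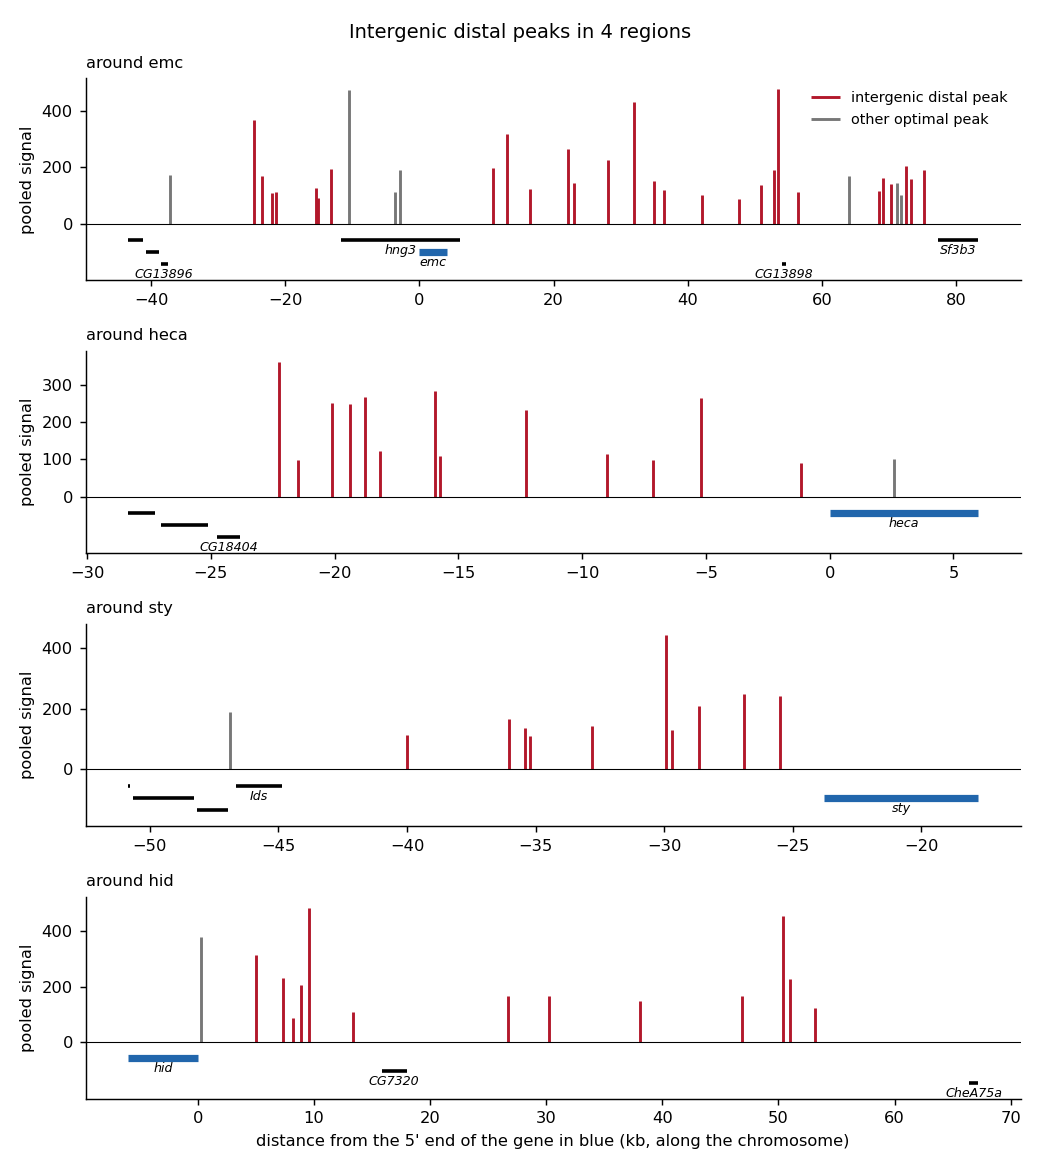
Pooled signal of each optimal peak (y axis) against its distance along the chromosome from the 5′ end of the gene in blue (kb), with protein-coding genes as bars under the axis, cut short at the panel edges, and the named gene in blue; red lines are intergenic distal peaks and grey lines other optimal peaks. Of the peaks in view, 28 around emc, 13 upstream of heca, 10 on the 3′ side of sty and 13 upstream of hid are intergenic distal, with signals from 88.2 to 484.0.

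Which genes stand beside intergenic distal peaks was described for 16 lists, beside the background of all autosomal protein-coding genes that border eligible sequence: 638 of 6566 (9.72%) were beside at least 1 peak, and 6.72% beside 1 in the top set of every replicate. Long gaps give a gene more chances to be beside a peak, so the density in the flanking sequence is given too, with 21.2 per Mb over all. Outside transposable elements, the innermost stretches and chromosome 4 the overall values were 10.3% of genes and 32.8 per Mb, and the lists are set against these as well. Some lists share genes, and neighbouring genes share a gap and its peaks.

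Genes of secreted signals and their receptors stood beside intergenic distal peaks in 13 of 30 cases (43.3%), with 28 peaks at 76.5 per Mb, and 9 of the 30 beside a peak found in the top of all 3 replicates. With the restriction the density was 83.8 per Mb, against 32.8. They were the Hedgehog ligand and its receptor gene, hh and ptc, the Wnt ligand genes wg, Wnt4, Wnt6 and Wnt10, the Frizzled receptor gene fz, the BMP ligand gene dpp, the activin-like ligand gene daw, the Notch ligand gene Ser, the EGF-like ligand gene vn, and the FGF ligand genes pyr and ths. The strongest lay 5247 bp upstream of ptc, with 57.3, 121 and 90.5 in replicates 1, 2 and 3, followed by 1 between Wnt6 and Wnt10 with 50.3, 150 and 66.8. A peak between dpp and Slh had 35.04, 111 and 60.4.

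Transcription factor genes of patterning were also often beside a peak. Of the homeobox and patterning list, 22 of 52 (42.3%) were, with 36 peaks, but these genes have 1.29 Mb of flanking sequence and the density was 27.9 per Mb. Beside a peak in the top set of every replicate were 11 of the 52 (21.2%), against 6.72% of all genes. With the restriction the density of this list was 29.5 per Mb, below the 32.8 over all. The 22 included the Hox genes Antp, Dfd, Scr and abd-A, the segmentation genes en, inv, odd, slp1, slp2, kni, knrl and tll, and the eye genes eya and Optix. Not counted was h, annotated as hry, which matched no symbol and borders a gap with 4 peaks. The peak between C15 and sp3 was the strongest, but it lay 551 bp upstream of sp3, its nearest start site. The knrl peak followed with 54.8, 85.0 and 66.5. Of T-box, Fox, Sox and GATA genes 14 of 29 (48.3%) were beside a peak, with 23 peaks at 44.9 per Mb, or 46.2 with the restriction, and 10 were beside one in the top set of every replicate. The strongest lay 3363 bp upstream of foxo, which acts in insulin signalling, with 59.8, 198 and 97.2, followed by croc with 71.9, 96.8 and 64.1.

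Of ecdysone response and nuclear receptor genes 8 of 31 (25.8%) were beside a peak, with 17 peaks at 49.8 per Mb, or 52.1 with the restriction, 9 of them in the Eip93F gap. The others were Blimp-1, a repressor that times the ecdysone response (25.1, 97.7 and 67.3), E23, Eip63E, ImpE2, kni, knrl and tll, and 5 of the 8 were beside a peak in the top set of every replicate. Cell death and autophagy genes had 3 of 20 (15%), with 9 peaks at 50.1 per Mb, or 50.3 with the restriction, 6 of them in the gap beside hid. Beside Atg13, an autophagy initiation gene, the stronger of 2 peaks had 81.2, 180 and 102, and the third gene was Diap1, an inhibitor of apoptosis. Axon guidance and adhesion genes had 9 of 31 (29.0%), at 29.6 per Mb, including ds, ft, shg, robo2, hbs and Fas3, all 9 beside a peak in the top set of every replicate. With the restriction their density, 31.8 per Mb, was below the 32.8 over all.

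Other lists were near the background or below it. Muscle and neuron genes had 3 of 19 each (15.8%), at 21.4 and 21.5 per Mb, or 32.8 and 33.8 with the restriction. Chemoreceptor and odorant-binding genes had 14 of 123 (11.4%) at 14.5 per Mb, or 16.5 with the restriction. Cuticle protein genes had 9 of 103 (8.74%) at 27.5 per Mb, or 28.02 with the restriction, and hemocyte and immune genes 1 of 18 (5.56%). Of bHLH and Notch target genes 2 of 25 (8%) were counted. That count leaves out emc, which borders no gap, and h, which matched no symbol. As hry, h borders a gap with 4 peaks, so the list's low standing depends on these omissions. Cytoplasmic ribosomal protein genes had 3 of 39 (7.69%) at 5.23 per Mb. With the restriction they had 3 of 30 (10%) at 20.8 per Mb, against 10.3% and 32.8 over all. The ribosomal protein genes beside a peak were RpL13, RpLP0 and RpL22-like. No gene was beside a peak among 10 salivary glue and 71E cluster genes, 12 testis genes and 6 fat body genes, and these lists had under 0.1 Mb of flanking sequence each, in which few peaks fall at 21.2 per Mb.

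**Figure D5:**
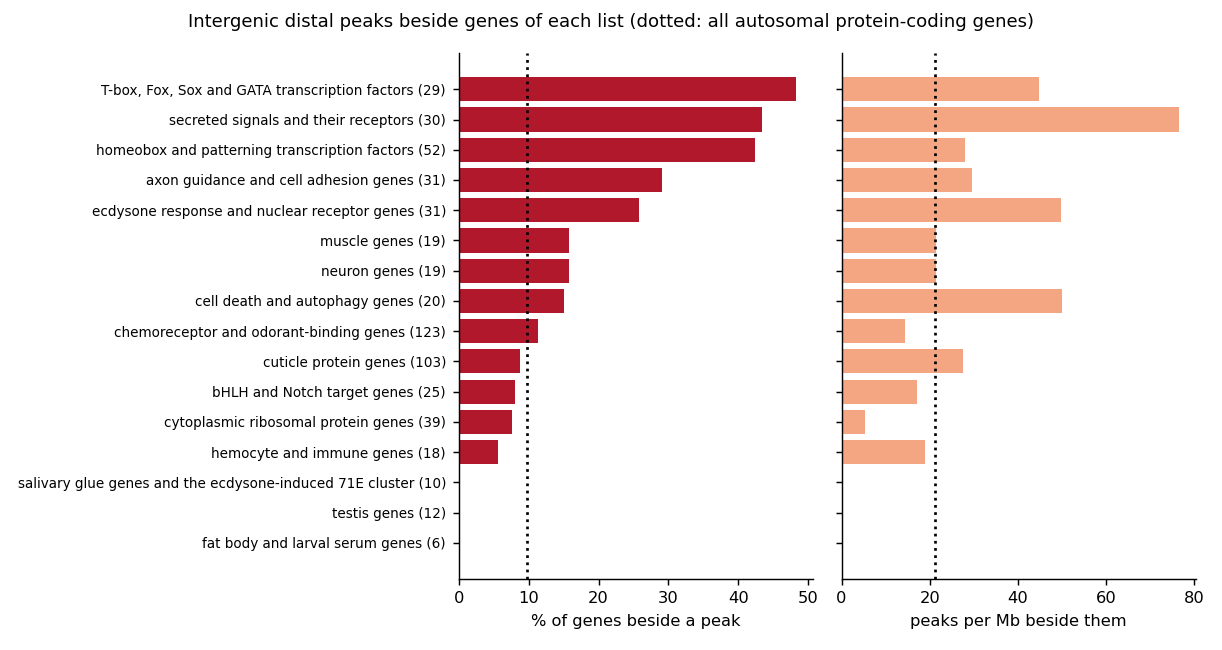
Share (%) of genes bordering eligible sequence that stand beside an intergenic distal peak (left) and intergenic distal peaks per Mb of their flanking eligible sequence (right) for 16 gene lists, with the number of bordering genes in brackets and all autosomal protein-coding genes dotted at 9.72% and 21.2 per Mb. T-box, Fox, Sox and GATA genes stand highest by share at 48.3%, and secreted signals and receptors by density at 76.5 per Mb.

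The leading peaks beside genes of the other lists were of moderate to high signal. The strongest beside a Notch target gene lay between E(spl)mbeta-HLH and E(spl)malpha-BFM, with 93.5, 163 and 141 in replicates 1, 2 and 3. Beside Zasp52, a muscle Z-disc gene, the peak had 112, 120 and 75.6, and beside ple, which encodes the dopamine synthesis enzyme tyrosine hydroxylase, 39.2, 108 and 61.2. The peak between the cuticle genes Cpr72Ea and Cpr72Eb had 80.1, 120 and 71.7, and that beside the gustatory receptor gene Gr93d 101, 190 and 114. The peak beside srp, a GATA factor of blood and fat body, had 17.9, 86.9 and 52.0 and lay in the top set of 2 replicates. Beside RpL13 the values were 48.7, 90.7 and 59.0.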

How the data were processed

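The deposited signal of each peak is the authors' peak caller value. The deposited −log10 q-value was 3.95 in every peak described here and ranked nothing. Per the deposited text notes, replicate lists were called against a control, and the optimal list came from the irreproducible discovery rate. The sources used here do not name the aligner, the caller or its threshold. Only the 5 dm6 lists were used. Read depth is unknown. Genes and start sites came from Ensembl release 115, sequence from RefSeq. An optimal peak took the strongest replicate region overlapping it by 1 bp or more. Differences over the 3 replicates used exact two-sided sign-flip permutation tests. Scripts ran in Python 3.11.15 with numpy 2.4.6, pandas 2.3.3 and matplotlib 3.10.9 and were tested on simulated data. The class and gene lists were chosen with earlier results of these data known. Named were the 15 strongest peaks in the top of every replicate, the 8 richest gaps, the 5 farthest peaks, up to 4 peaks per list, the 8 nearest miRNA genes, the 10 leading words and motifs differing by 2 points. The words with C or G were picked after their values were seen. Of the listed symbols, 11 entries matched no symbol of the annotation and were left out. Genes annotated under another name are thus missing. An example is h of the patterning and bHLH lists, annotated as hry and beside a gap with 4 peaks.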

Additional observations from a re-analysis of the deposited data

How the results depend on the processing

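Directions of the signal difference from promoter peaks and of the A+T rise were the same under every alternative run. The mean log2 difference from intragenic distal peaks also stayed negative. It was 0.01 in replicate 3, though, and the main value of -0.05 ± 0.05 (SD, n = 3) lay within the spread between replicates. The runs reuse the same replicates, so no direction is drawn for that difference. The size of the A+T rise ran from 8.71 to 14.8 points, with 9.30 in peaks without soft-masked bases at the summit. The class held 283 peaks in the stronger 50% of the optimal list, and 568 to 855 under the other alternatives to its rule. The share in the top of all replicates was 47.8% with reciprocal overlap of 50% and 31.5% with 50% as many top peaks, against 51.7% and 36.2% of all optimal peaks, and 68.7 to 76.2% without 1 replicate. Summit spread was 31 to 34 bp without 1 replicate. The share beyond 5 kb was 51.0% with protein-coding start sites and 29.7% in the stronger 50%. The share with another summit nearby was 24.96% within 1000 bp, 61.9% within 5000 bp, 28.6% in the stronger 50% and 34.9% without secondary summits. Density was 23.7 per Mb outside transposable elements, 30.6 outside the innermost stretches and chromosome 4, and 32.8 outside both. Secondary summits and these last 3 restrictions were defined after seeing the data. No paired analysis was possible because there is 1 group of samples; peak classes were compared within each replicate. Unknown depth limits weak peaks.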

Other observations

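Of 202 autosomal miRNA genes, 13 (6.44%) had an intergenic distal summit within 5000 bp of the annotated start of the precursor, which may not be the start of the primary transcript. The same held at the annotated start of 3.48% of autosomal protein-coding genes and 4.57% of all autosomal genes. No test was made, and clustered miRNA genes share peaks. The nearest was mir-375, 700 bp away, with a signal of 9.54, 59.9 and 22.0 in replicates 1, 2 and 3, and mir-4981 followed at 840 bp with 14.0, 39.8 and 44.5. Each was in the top set of just 1 replicate. The bantam gene, mir-ban, which promotes growth and represses hid, had a peak 2104 bp downstream with 44.2, 119 and 86.8, in the top set of every replicate. mir-1004 had one at 2291 bp with 29.0, 60.1 and 34.98. The summit nearest to mir-8, at 2846 bp, had a pooled signal of 113.7 and was a secondary summit, 204 bp from a stronger one of 329.0 that shares its replicate regions, with 62.2, 150 and 112. The clustered mir-275 and mir-305 shared a peak, 2953 and 3130 bp upstream, with 26.0, 56.1 and 48.8. mir-9a, which limits the number of sensory organ precursors, had one 3184 bp upstream with 44.1, 113 and 43.2.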
